A study of Mus musculus with 27 samples.

Results

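The semaphorins, ephrins, Slits and netrins and their receptors were followed through RNA sequencing of mouse pancreas, islets and neural progenitors that differ in the transcription factor Nkx2.2. Members were all genes whose symbol starts with Sema and a digit, Plxn, Epha, Ephb, Efna, Efnb, Slit, Robo, Ntn or Unc5, with Slitrk genes left out, which gave 73 genes of the 61346 listed in any of the 3 count tables. The ligands were 7 secreted and 13 membrane semaphorins, 5 ephrin-A and 3 ephrin-B genes, 3 Slits and 6 netrins. The receptors were 9 plexins, 9 EphA and 5 EphB genes, 4 Robo genes and 4 Unc5 genes. The remaining 5 (Unc50, Unc5cl and 3 antisense genes named Plxna4os) match by name alone.

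The study asked what a mutation of the SD domain of Nkx2.2 does to transcription in the pancreas and in the neural tube lineage. Whole pancreata at E15.5 came from 3 controls and from 4 Nkx2.2SDmut embryos. Islets came from 2 controls and 3 betaSDmut mice at 8 weeks, which carry the mutation in beta cells, and from 2 controls and 2 betaKO mice at 4 weeks. The series calls the controls wildtype, and the Cre driver and the betaKO allele are not given in the sources used here. Motor neuron progenitors at day 4 were grown from mouse embryonic stem cells: 3 untreated cultures of the iNkx2.2 line (pMN), 3 cultures of that line treated with doxycycline (iNkx2.2) and 2 doxycycline-treated cultures of the iSDmut line. Doxycycline, at 1 µg/ml for about 16 h, switched on a FLAG-tagged copy of wildtype Nkx2.2 or of the SD mutant. No untreated iSDmut culture was analysed here, so line and transgene cannot be told apart in that group. ChIP-seq of Nkx2.2 came from 2 libraries of MIN6, an established line of mouse beta cells.

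Axon guidance cues steer growing axons by attraction or repulsion. Secreted semaphorins act through plexins with neuropilins as coreceptors, Slits repel through Robo receptors, netrins attract through Dcc and repel with Unc5 receptors, and ephrins signal through Eph receptors on contact between cells. In the neural tube, netrin and Slits are made at the ventral midline, and Nkx2.2 marks the p3 progenitors next to the floor plate. In islets, Robo receptors take part in the arrangement of endocrine cells, and EphA and ephrin-A signalling between beta cells bears on insulin secretion.

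The regions that carry the binding data are given first. Robo2 held 13 of the final Nkx2.2 sites, and no other protein-coding gene of the annotation held as many. The windows below are 51 bases of the GRCm38 plus strand centred on a site, with capitals for either of 2 words. The first is GAGTG, which reads as CACTC when it lies on the other strand. The second is GCAAC, whose reverse complement is printed as GTTGC. They are shown because they are the Robo2 sites that hold such a word, and the sites that the authors' deposited table joins to Robo2, Robo1, Sema3c and Unc5c.
Robo2 chr16:74012431-74012481: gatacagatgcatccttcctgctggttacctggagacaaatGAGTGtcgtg
Robo2 chr16:74090175-74090225: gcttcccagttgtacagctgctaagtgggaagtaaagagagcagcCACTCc
Robo2 chr16:74121944-74121994: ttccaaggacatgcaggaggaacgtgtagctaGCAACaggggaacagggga
Robo2 chr16:74196746-74196796: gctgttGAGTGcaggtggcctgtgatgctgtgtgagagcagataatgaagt
Robo2 chr16:74232523-74232573: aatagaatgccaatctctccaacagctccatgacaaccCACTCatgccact
Robo2 chr16:74307188-74307238: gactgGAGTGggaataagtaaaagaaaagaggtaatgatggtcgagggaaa
Robo2 chr16:74884505-74884555: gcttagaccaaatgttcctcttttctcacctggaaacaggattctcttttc
Robo1 chr16:72044232-72044282: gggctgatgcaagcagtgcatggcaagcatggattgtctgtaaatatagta
Sema3c chr5:17648416-17648466: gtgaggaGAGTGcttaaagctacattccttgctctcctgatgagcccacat
Unc5c chr3:141581525-141581575: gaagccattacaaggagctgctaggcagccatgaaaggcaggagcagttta

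On either strand, GAGTG was in 28.1% of the 6473 final sites and in 10.6% of windows of the same length from 32851 RefSeq promoters. GCAAC was in 36.3% of the sites and 7.57% of the promoter windows. Of the 34 sites inside guidance genes, 10 (29.4%) held GAGTG and 3 (8.82%) held GCAAC. The word AAGTG, the core that textbooks give for Nkx2 homeodomain proteins, was in 11.2% of final sites, 10.1% of promoter windows and 6 of the 34 guidance sites (17.6%), and 17 of the 34 held none of the 3 words. GAGTG and GCAAC were picked after words had been counted at all final sites of these data, so their shares describe the sites and test nothing. The words differ in letters but may overlap one another in a window.

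The 34 sites lay in 12 of 70 protein-coding guidance genes (17.1%), against 10.1% of all 21883 protein-coding genes with a site inside. Guidance genes are long, with a median of 45154 bp against 17170 bp, and the share was not adjusted for length. Robo2 spans chr16:73891976-75447443 on the minus strand (1555468 bp) and had 0.836 sites per 100 kb. Robo1, on the plus strand at chr16:72027518-73047491, had 6 sites or 0.588 per 100 kb. The median over the 57 protein-coding genes at least as long as Robo1 was 0.129 per 100 kb. Unc5c and Ntng1 held 3 sites each, and 33 of the 34 sites were intronic. The site with the most reads in Robo2, at chr16:74884530, had 232 and 204 reads in the 2 replicates, that is 8.21 and 8.44 on the deposited log2 CPM scale, higher than 92.8% of final sites. The authors' deposited table joined sites to 10 of its 31 guidance genes (32.3%), against 26% of its 9971 genes, and joins some genes to sites far outside them. Counting instead the gene with the nearest annotated start, 17 of 70 guidance genes (24.3%) had a site, against 17.9% of all genes. Slit1, Plxna4, Ephb3 and Sema3e, which changed in RNA as described below for some groups, had no final site inside. The same held for other genes called below, such as Efnb2, Epha4 and Ntn4. The sites are from MIN6 cells, so they do not show where Nkx2.2 binds in progenitors, the only cells in which Slit1 was called.

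**Figure D1:**
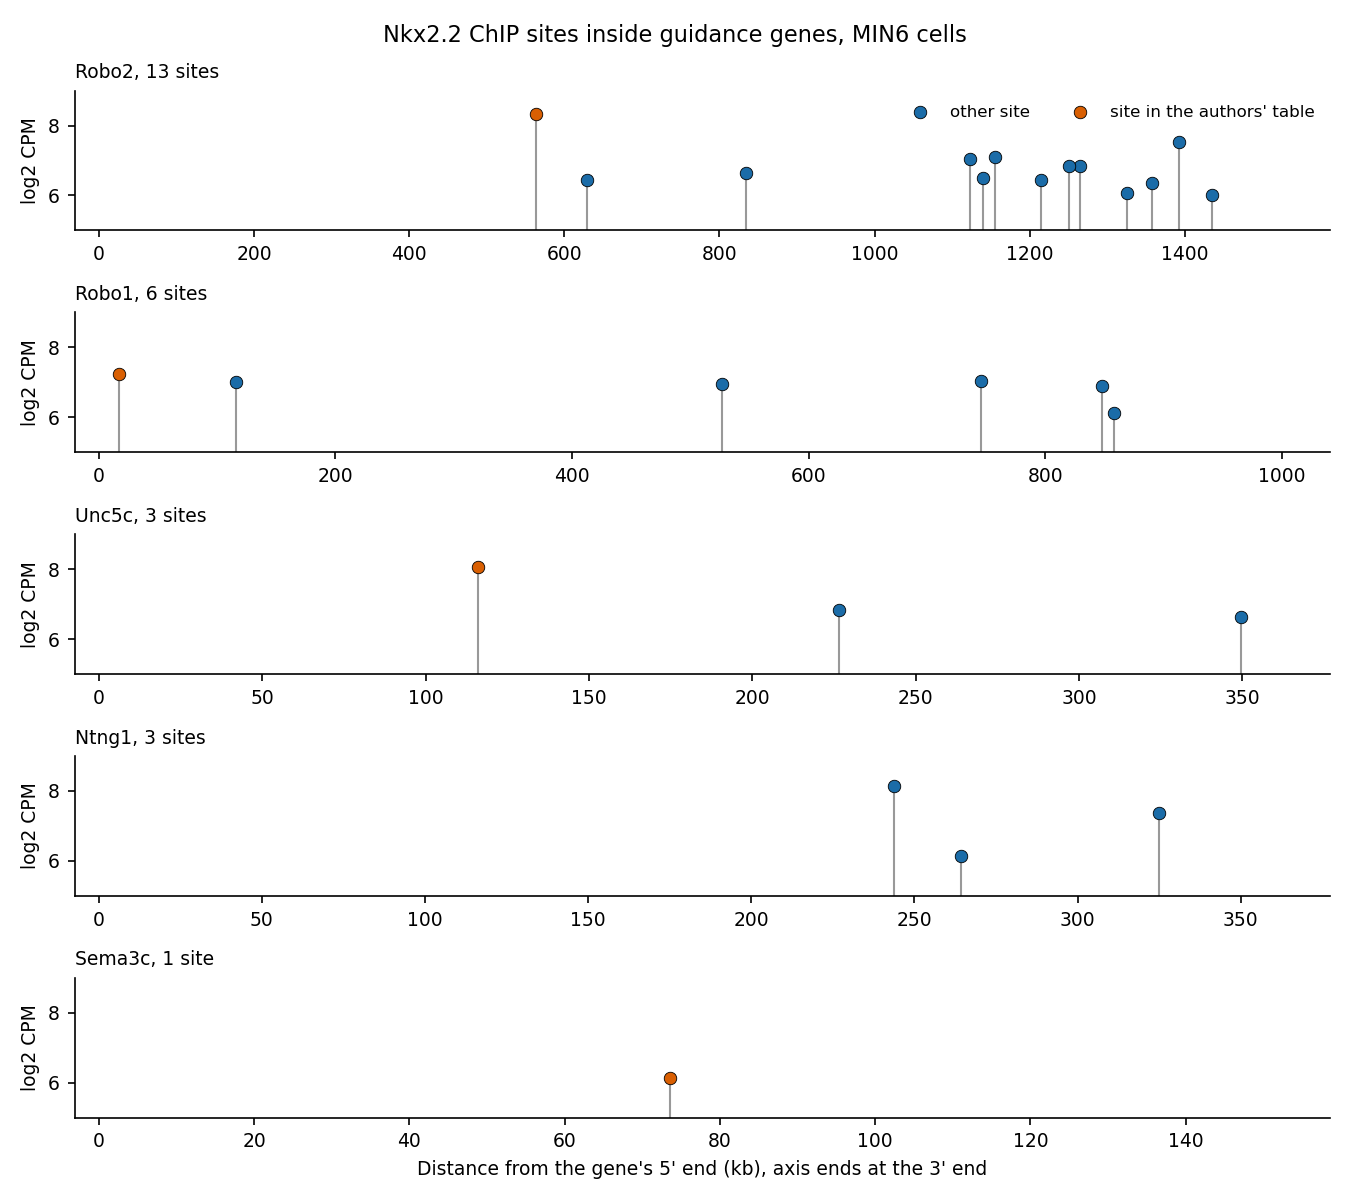
Final Nkx2.2 sites inside 5 guidance genes in MIN6 cells, by distance from the gene's 5' end in kb (x) and mean log2 CPM of the 2 ChIP libraries (y, from 5 and not from 0); orange points are the sites the authors' deposited table joins to the gene. Robo2 holds 13 sites, most of them in its 3' part, and its orange site has the highest value of the 13.

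Total counts per library were 38447596 to 41840638 in embryonic pancreas, 12398041 to 32385406 in islets and 17757991 to 46840701 in progenitors. Levels are given as CPM, the count of a gene per 1e+06 counts of its library's TMM-scaled total. Nkx2-2 itself was at 5.40 to 11.6 CPM in pMN, 343.1 to 378 CPM in iNkx2.2 and 244.7 to 248.1 CPM in iSDmut. In islets labelled betaKO it was at 92.9 and 64.6 CPM against 102.6 and 76.2 CPM in controls (log2 fold change -0.18 ± 0.24, SE, edgeR adjusted p = 0.779). The counts are of the whole gene and the deleted exons are not given in the sources used here, so this level does not check the label. The 4-week islet samples are also labelled as genomic DNA, although their columns look like gene counts of RNA. At E15.5 the muscle markers stood at 5366 CPM in control 3 and 6108 CPM in SDmut 2 and at 8.84 to 65.8 CPM in the other 5 libraries. The labels do not say whether libraries of a group came from separate animals or cultures, so p-values measure the spread between these libraries only.

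Most of these genes were expressed in every tissue studied. At least 1 CPM in every library was reached by 61 of 73 genes in embryonic pancreas, 49 of 70 rows in islets and 56 of 72 rows in progenitors. Epha6 stayed under 1 CPM in every library of all 3 tables. By the authors' FPKM, which corrects for gene length, the plexin Plxnb2 was the highest receptor in islets, with a mean over the 4 groups of 58.5 FPKM, followed by Robo2 (24.1 FPKM), and both held these places in each of the 4 groups. The netrin receptor Unc5a was at 13.6 FPKM and Plxnb1 at 11.3 FPKM. Among ligands, the means were 9.95 FPKM for the membrane semaphorin Sema4d, 9.36 FPKM for Efnb1 and for Efnb3, 8.78 FPKM for Sema4a, 8.14 FPKM for Sema4b and 7.76 FPKM for Efna1. The order of these ligands differed between groups: in betaKO Efnb3 (12.8 FPKM) was highest and Sema4d was at 7.64 FPKM, and in 4-week controls Efna1 (10.04 FPKM) was above Sema4d (9.41 FPKM). Slit3 was at 1.41 FPKM, Slit2 at 0.497 FPKM and Slit1 at 0.392 FPKM, so all 3 Slit ligands stood far under Robo2 in the same tissue. Of the secreted semaphorins, Sema3f was above Sema3c in both control groups (6.06 against 3.03 FPKM at 4 weeks and 5.01 against 3.07 FPKM at 8 weeks) and under it in betaKO (4.53 against 5.65 FPKM) and betaSDmut (4.06 against 8.89 FPKM). The mean over the groups was 5.55 FPKM for Ntn4, 2.99 FPKM for Ephb4 and 2.11 FPKM for Epha7.

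In progenitors netrin-1 (Ntn1) was the highest guidance gene, with a mean over the 3 groups of 52.0 FPKM, and its receptor gene Unc5a stood at 37.5 FPKM. The receptor Ephb2 was at 30.0 FPKM, Plxnb2 at 24.8 FPKM and Plxna1 at 22.1 FPKM. Slit1 was at 21.7 FPKM, with Slit2 at 9.83 FPKM and Slit3 at 6.28 FPKM, while Robo2 was at 8.21 FPKM and Robo1 at 3.30 FPKM. Among contact ligands, Efnb3 (20.5 FPKM), the semaphorins Sema4c (20.2 FPKM) and Sema6c (17.0 FPKM), Ntng2 (16.9 FPKM), Efna2 (15.2 FPKM) and Efna4 (13.8 FPKM) had the highest means. Secreted semaphorins were low: Sema3c was at 5.65 FPKM in pMN, 2.33 FPKM in iSDmut and 1.48 FPKM in iNkx2.2, where Sema3b was above it at 2.33 FPKM. The 2 FPKM tables were made separately, so levels were not tested between islets and progenitors.

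With wildtype Nkx2.2, guidance genes of 10 of the 11 classes changed in motor neuron progenitors. Of 67 guidance rows that passed the count filter, 6 rose and 8 fell in iNkx2.2 against pMN (edgeR's quasi-likelihood test, adjusted p under 0.05 over all genes). These 14 are 20.9% of the rows tested, beside 9.49% of all 15653 genes (4.71% rose and 4.78% fell). The secreted semaphorin Sema3c fell the most, the repellent Slit1 rose 3.07-fold, and the ephrin Efnb2 and the receptor Epha4 fell. The median log2 fold change was 0.27 over the guidance genes and -0.01 over all genes, and the median size of change was 0.49 against 0.23.

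Among ligands, Slit1 (chr19:41597824-41747275, minus strand) stood at 126.7, 70.9 and 98.0 CPM in the pMN libraries and at 352, 250.6 and 304.8 CPM in iNkx2.2. Its groups did not overlap, and the log2 fold change was 1.62 ± 0.20 (SE, edgeR adjusted p = 0.00185). Sema3c (chr5:17574816-17730268, plus strand) went the other way, from 30.7, 41.3 and 30.5 CPM in pMN to 6.08, 6.80 and 7.66 CPM (log2 fold change -2.32 ± 0.18, edgeR adjusted p = 0.000201). The related Sema3d fell from 19.9, 10.7 and 18.0 CPM to 5.35, 4.43 and 3.43 CPM (-1.87 ± 0.29, edgeR adjusted p = 0.00514). Every iNkx2.2 library was under every pMN library for both semaphorins. Another secreted semaphorin, Sema3b, rose, from 4.73 to 5.76 CPM in pMN to 8.19 to 12.1 CPM (0.96 ± 0.25, edgeR adjusted p = 0.0424), so 2 of the 7 tested fell and 1 rose. Efnb2, the ligand of several EphB receptors and of Epha4, fell from 53.4, 67.1 and 76.1 CPM to 24.9, 25.3 and 34.6 CPM (-1.215 ± 0.17, edgeR adjusted p = 0.00328). Netrin-4 (Ntn4), a laminin-related netrin, rose from 3.82 to 4.78 CPM in pMN to 7.92 to 11.6 CPM (1.19 ± 0.20, edgeR adjusted p = 0.00892). Sema5a fell by 0.93 on the log2 scale (edgeR adjusted p = 0.0361), the only one of 13 membrane semaphorins to pass. The second row of Ntng1 fell by 1.30 at levels of 1.23 CPM or less (edgeR adjusted p = 0.0444). None of the 5 ephrin-A rows tested passed.

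Among receptors, Epha4, which takes part in the guidance of motor axons, fell from 95.3, 64.5 and 85.8 CPM to 38.1, 23.1 and 32.2 CPM (-1.39 ± 0.25, edgeR adjusted p = 0.0109). Its relative Epha10, which lacks kinase activity, rose from 2.84, 1.58 and 1.69 CPM to 9.09, 5.42 and 5.92 CPM (1.75 ± 0.32, edgeR adjusted p = 0.0118). Of 8 EphA genes tested these 2 passed. Ephb1, the receptor known for sorting axons at the optic chiasm, fell from 8.68 to 10.6 CPM in pMN to 2.60 to 5.85 CPM (-1.18 ± 0.26, edgeR adjusted p = 0.0258). The Slit receptor Robo2 fell from 61.4, 51.9 and 64.3 CPM to 39.7, 27.4 and 41.9 CPM, again without overlap (-0.70, edgeR adjusted p = 0.0264). Slit1 and its receptor gene Robo2 thus moved in opposite directions. By counts the netrin receptor Unc5c rose from 1.36 to 1.56 CPM to 2.70 to 3.13 CPM (1.00, edgeR adjusted p = 0.0324). The authors' FPKM of Unc5c does not show this rise, with a mean of 0.447 in pMN and 0.3125 in iNkx2.2, and the reason was not tested. The plexin Plxna2, a receptor of secreted and class 6 semaphorins, rose from 199.7 to 244.1 CPM to 256.1 to 328.4 CPM (0.46, edgeR adjusted p = 0.0411).

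Other genes followed by a fixed list did not pass. Ntn1 was at 338.9, 271.5 and 345.6 CPM in pMN and 466.2, 360.5 and 470.3 CPM in iNkx2.2 (log2 fold change 0.44, edgeR adjusted p = 0.153). The repellent Sema3a had -1.545 (edgeR adjusted p = 0.0603), Slit2 -0.50, Robo1 0.34, Plxnd1 0.70, Epha5 -0.42, Efna5 -0.38 and Ephb2 0.03. Same-numbered pMN and iNkx2.2 libraries deviated together, which the reported fit does not take into account. With the replicate number as a block 33 guidance rows were called, including all 14, beside 4629 of all genes (1486 without the block). In that blocked fit Sema3a (-1.56, edgeR adjusted p = 0.00264) and Robo1 (0.34, edgeR adjusted p = 0.0337) also passed.

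The other genes of these pathways were counted from a list. Of 12 coreceptors and other guidance receptors tested, Flrt1 rose (log2 fold change 1.565) and the adhesion receptor Nrcam (-1.225) and the semaphorin coreceptor Nrp2 (-1.01) fell. Of 3 other ligands Draxin, an antagonist of netrin signalling, rose (1.18). Of 30 cytoplasmic transducers the small GTPase Rnd1 rose (0.83) and the actin-binding Ablim1 fell (-0.69).

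Markers of neighbouring cell states moved with these groups. The summed level of 3 motor neuron progenitor markers was 529.7 to 653 CPM in pMN and 170.8 to 291.2 CPM in iNkx2.2, and that of 4 floor plate markers, whose cells make netrin and Slits, was 92.1 to 132 CPM and 185.7 to 296.8 CPM. The 5 neuronal markers summed to 345 to 682.9 CPM and 740.7 to 1041 CPM, the 7 mesenchyme markers to 43.3 to 57.4 CPM and 69.5 to 102 CPM, and the 6 Schwann and neural crest markers to 10.8 to 14.2 CPM and 17.2 to 21.3 CPM. All members of these lists were found, and their part in the results was not tested. In bulk samples, fewer cells of a type and less RNA per cell cannot be told apart. Sema3c, Slit1, Efnb2, Sema3d and Ntn4 kept their calls in all 16 alternative fits. Without iNkx2.2 replicate 1 or pMN replicate 1 the guidance calls numbered 6, beside 412 and 451 of all genes. Without pMN replicate 3 they numbered 8 (beside 1299), and without iNkx2.2 replicate 3 they numbered 9 (beside 775). Lane 2 alone, which lacks replicate 3 of both groups, gave 8 (beside 994).

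**Figure D2:**
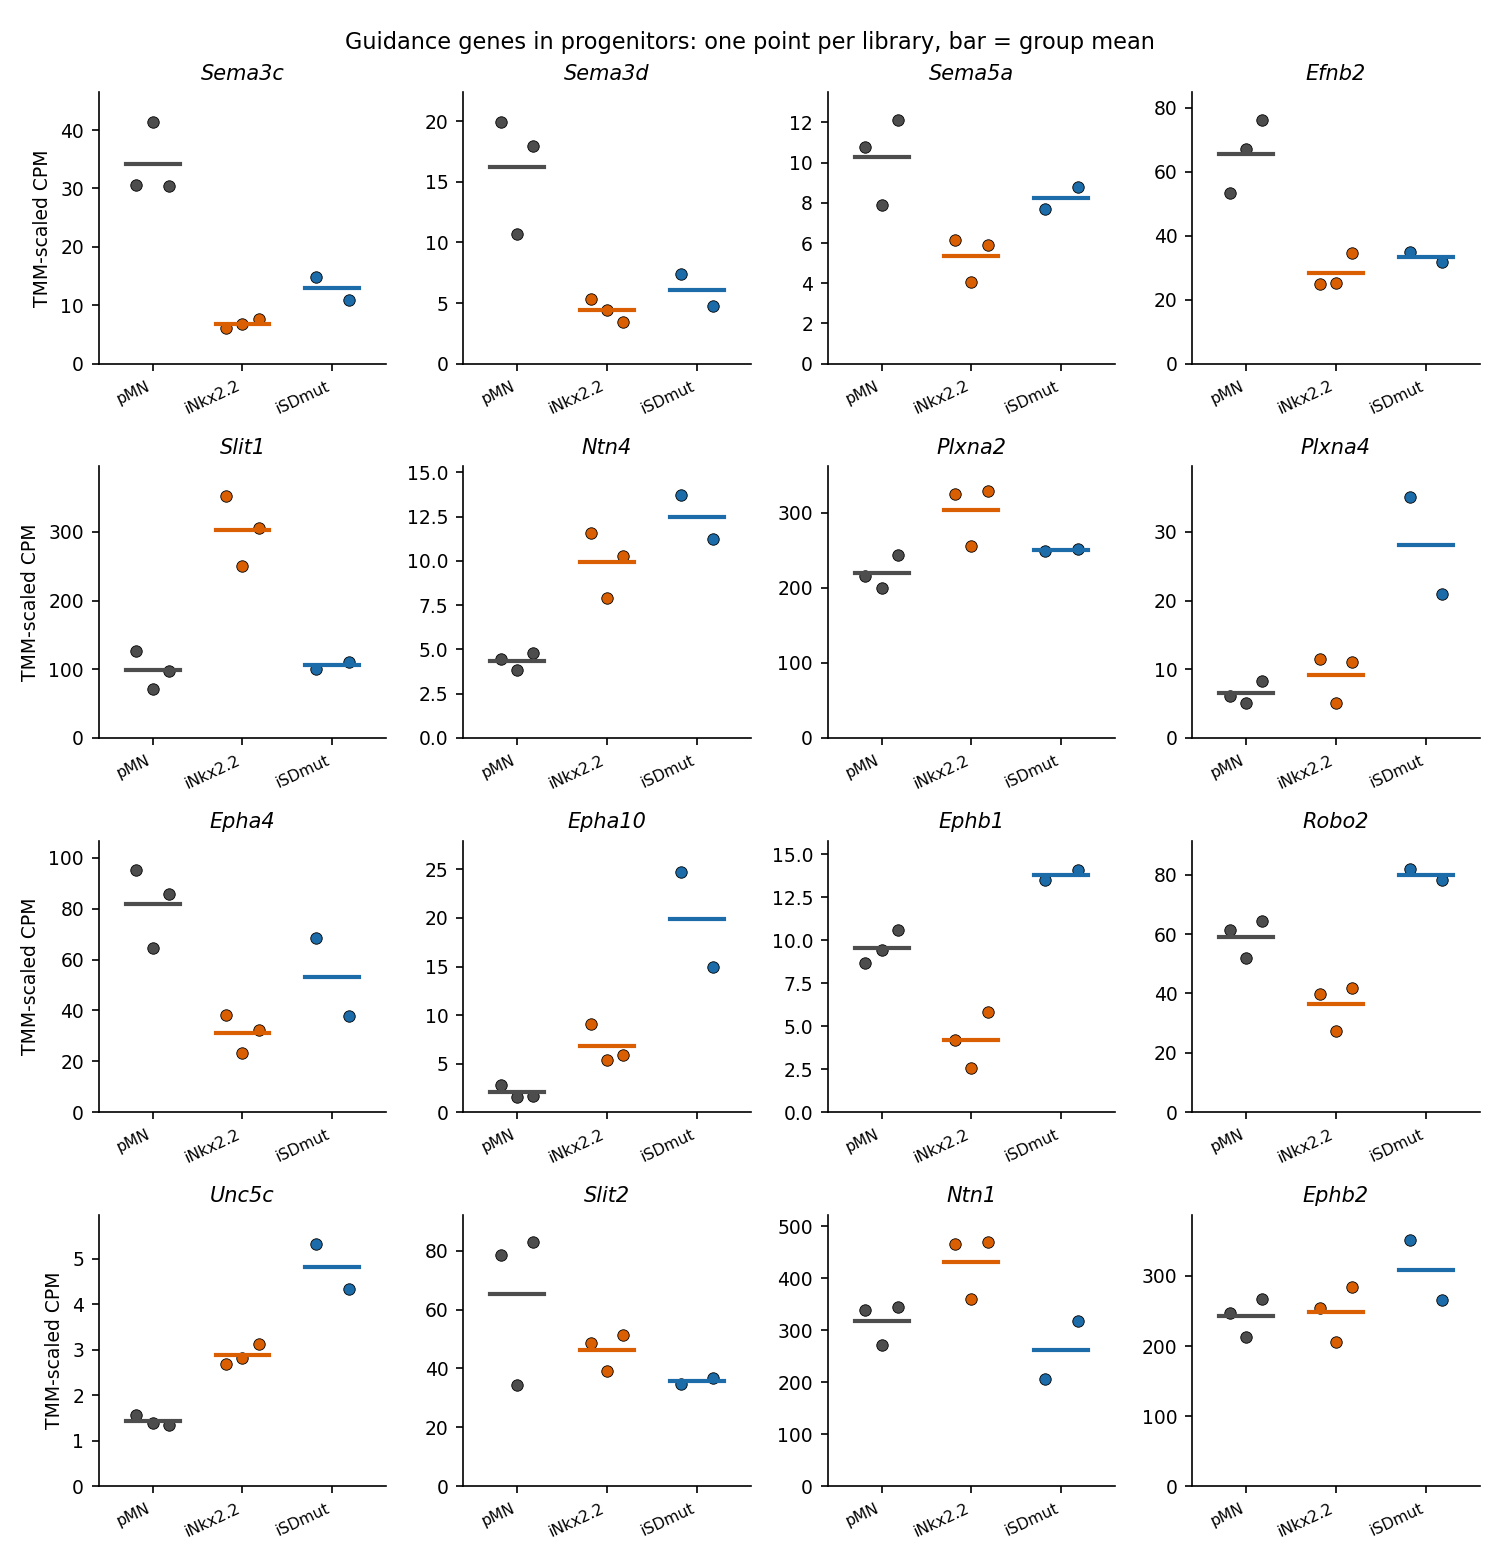
CPM (y, from 0) of 16 guidance genes in pMN, iNkx2.2 and iSDmut progenitors (x), with a point for each library and a bar at the group mean. Slit1 is at 250.6 to 352 CPM in iNkx2.2 and at or under 126.7 CPM in the other groups, and Sema3c is lowest in iNkx2.2 and between the other groups in iSDmut.

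With the SD mutant, fewer guidance genes passed the test, and the 2 iSDmut libraries were set against the same pMN libraries as above, so these comparisons share their controls. As iNkx2.2 had 3 libraries, the lower number of calls does not show that the mutant changed fewer genes. In iSDmut 4 of 67 rows rose and 4 fell by edgeR at adjusted p under 0.05, that is 11.9% beside 3.54% of all genes (1.9% rose and 1.64% fell). Epha10, Ntn4, Unc5c and the plexin Plxna4 rose, and Sema3c, Sema3d, Sema3e and Efnb2 fell. Slit1, which rose with wildtype Nkx2.2, stood at 100.6 and 110.6 CPM in iSDmut, within the pMN range (log2 fold change 0.10 ± 0.22, edgeR adjusted p = 0.839).

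Epha10 had the largest change of the 8, at 24.75 and 15 CPM in iSDmut against 1.58 to 2.84 CPM in pMN (3.285 ± 0.35, edgeR adjusted p = 0.0018). Plxna4, which binds class 6 semaphorins and, with neuropilin, Sema3a, was at 35.1 and 20.9 CPM against 6.18, 5.16 and 8.34 CPM (2.08 ± 0.36, edgeR adjusted p = 0.0168). The iSDmut libraries differ from each other by more for these genes than the pMN libraries do, yet both lie above them. Unc5c was at 5.32 and 4.32 CPM against at most 1.56 CPM (1.74 ± 0.26, edgeR adjusted p = 0.00873). By the authors' FPKM its groups overlap, at 0.850 and 0.591 in iSDmut against 0.272 to 0.650 in pMN. Ntn4 was at 13.7 and 11.2 CPM against at most 4.78 CPM (1.51 ± 0.22, edgeR adjusted p = 0.00831). Sema3c was at 14.9 and 10.9 CPM against at least 30.5 CPM (-1.41 ± 0.21, edgeR adjusted p = 0.00814). Sema3d was at 7.39 and 4.78 CPM against at least 10.7 CPM (-1.42 ± 0.33, edgeR adjusted p = 0.0473). Sema3e, which signals through Plxnd1, was at 1.51 and 1.75 CPM against 3.30 to 4.34 CPM (-1.24 ± 0.29, edgeR adjusted p = 0.0479). Efnb2 was at 35.1 and 31.7 CPM against at least 53.4 CPM (-0.97 ± 0.19, edgeR adjusted p = 0.0284). Of the listed genes that did not pass, Slit2 had -0.88, Sema3a -1.205, Epha4 -0.63, Robo1 0.47, Robo2 0.44, Ephb2 0.35, Ntn1 -0.28, Plxna2 0.18, Epha5 0.12, Plxnd1 0.05 and Efna5 0.03.

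The netrin receptor Dcc rose (1.52, edgeR adjusted p = 0.0443) and Flrt3 fell (-1.08, edgeR adjusted p = 0.0168) among the 12 coreceptors and other receptors, Ablim1 fell (-0.89) among the 30 transducers, and none of the 3 other ligands passed. Motor neuron progenitor markers summed to 199.3 to 322.2 CPM in iSDmut, floor plate markers to 113.6 to 217 CPM and neuronal markers to 772.1 to 923.5 CPM, and their part in the result was not tested. Epha10 kept its call in all 16 alternatives. With a replicate block there were 22 calls, beside 2626 of all genes (554 without it). In lane 2 alone, which leaves 1 iSDmut library, the log2 fold change of Epha10 was 3.49. By the titles, iSDmut replicate 2 was the only progenitor library on lane 3, so lane and group cannot be told apart for it. Without pMN replicate 1 or pMN replicate 3 there were 5 calls, beside 171 and 314 of all genes.

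The direct comparison of the 2 induced groups called a ligand and its receptor. In iSDmut against iNkx2.2, Slit1 was lower and Robo2 higher, and these were the only guidance genes called by edgeR, 2 of 67 rows (2.99%) beside 0.281% of all genes (0.16% higher and 0.121% lower). Slit1 stood at 100.6 and 110.6 CPM with the mutant and at 352, 250.6 and 304.8 CPM with the wildtype protein (log2 fold change -1.52 ± 0.23, edgeR adjusted p = 0.0378). Robo2 stood at 82.0 and 78.1 CPM against 39.7, 27.4 and 41.9 CPM (1.14 ± 0.17, edgeR adjusted p = 0.0384), above the pMN libraries as well. Next by p came Ephb1 at 13.5 and 14.1 CPM against 2.60 to 5.85 CPM (1.70 ± 0.29, edgeR adjusted p = 0.0532), which did not pass, and Sema6b (-1.72, edgeR adjusted p = 0.0568). An unadjusted p under 0.05 was reached by 25 of the 67 rows and by 1962 of all 15653 genes. Among the listed genes that did not pass, Epha4 had 0.76, Unc5c 0.74, Ntn1 -0.72, Plxnd1 -0.66, Epha5 0.55, Efna5 0.41, Slit2 -0.38, Sema3a 0.34, Ephb2 0.31, Plxna2 -0.28, Efnb2 0.24 and Robo1 0.13. No gene of the pathway lists passed. The transgene level was itself lower in iSDmut than in iNkx2.2 (Nkx2-2 log2 fold change -0.53 ± 0.22, edgeR adjusted p = 0.37), and its part in these differences was not tested. Some marker sums also differed. The postmitotic motor neuron list was at 69.7 to 91.9 CPM in iSDmut against 29.4 to 62.1 CPM in iNkx2.2. Mesenchyme markers were at 15.6 to 64.7 against 69.5 to 102 CPM, and pluripotent markers at 0.168 to 1.79 against 2.78 to 8.06 CPM. Floor plate, motor neuron progenitor and neuronal sums overlapped. The part of these markers was not tested.

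Both calls sit near the threshold and depend on single libraries. By edgeR no guidance gene was called without any one of iNkx2.2 replicates 1, 2 or 3, pMN replicate 1 or pMN replicate 3, beside 1 to 20 of all genes. Leaving out either iSDmut library leaves 1 in that group. Guidance calls and calls over all genes both rose without iSDmut replicate 2 and both fell without iSDmut replicate 1. With library totals in place of TMM there were 0 calls, with no count filter 6 (beside 145 of all genes), with a replicate block 13 (beside 528) and with DESeq2 13 (beside 473, against 44 of all genes in the reported fit). In lane 2 alone neither gene was called (edgeR adjusted p = 0.113 for Slit1 and 0.058 for Robo2). Over these and the other alternatives the log2 fold change of Slit1 stayed between -1.64 and -1.40 and that of Robo2 between 0.97 and 1.28. The authors' deposited table for the progenitors calls the same pair, with log2 fold changes of wildtype over mutant of 1.59 for Slit1 and -1.17 for Robo2.

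**Figure D3:**
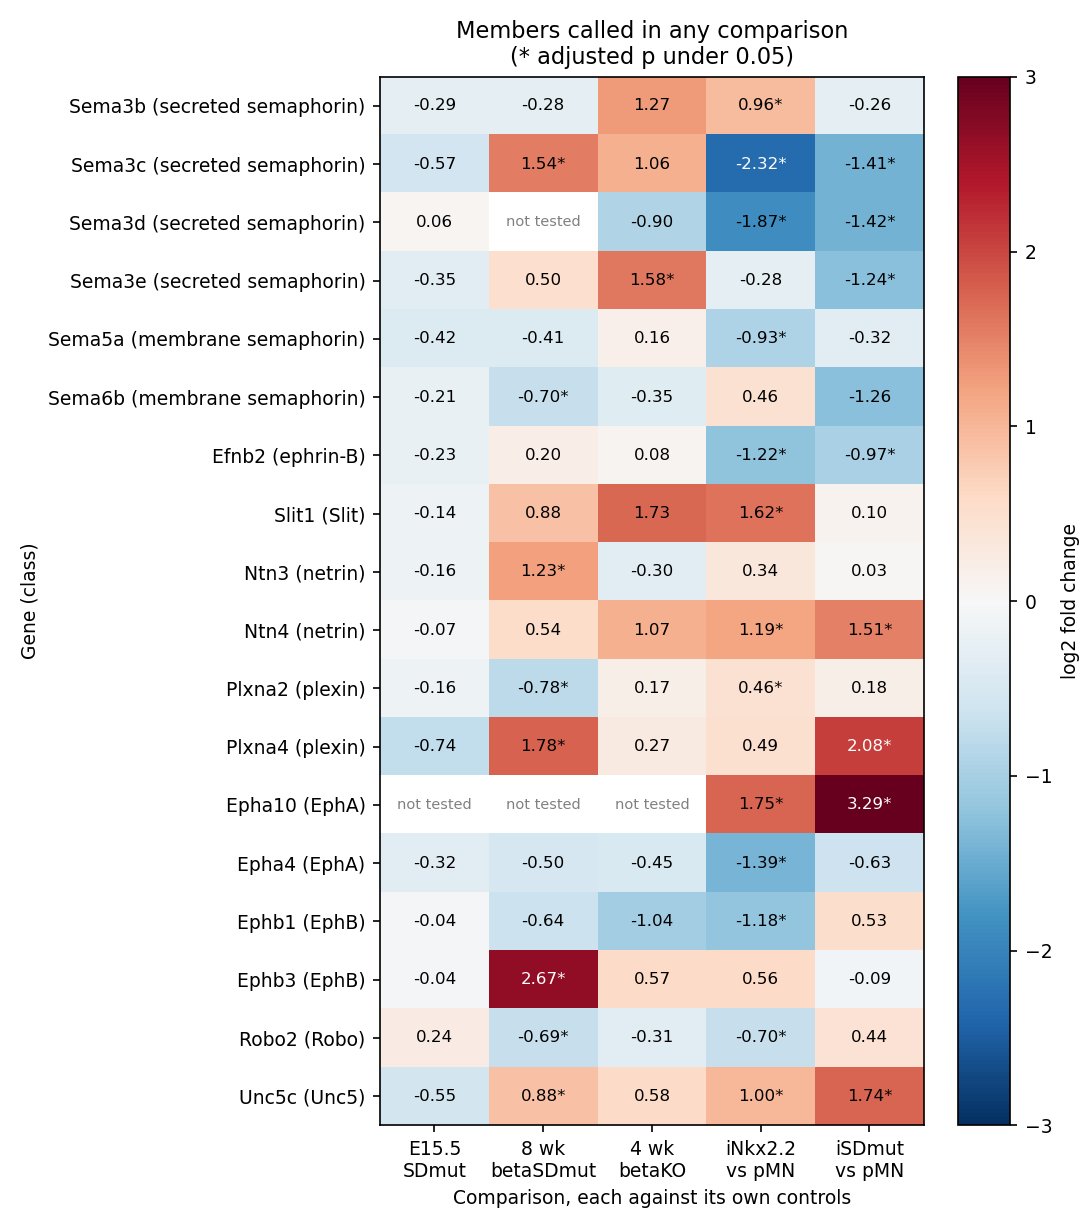
log2 fold changes (colour and printed value) of 18 guidance genes called in any of 5 comparisons against controls (columns), by gene and class (rows), with the low second row of Ntng1 not drawn; an asterisk marks an edgeR adjusted p under 0.05, and the 2 progenitor columns share their pMN libraries. Sema3c is above 0 in the islet columns, which compare mutant with control, and below 0 in the progenitor columns, which compare added Nkx2.2 with none added. In the E15.5 column, also mutant against control, it is below 0. Unc5c is above 0 in every column but E15.5 by these counts, but its mean FPKM is lower in iNkx2.2 than in pMN.

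In 8-week islets with the SD mutation in beta cells, guidance genes of 7 classes changed. Of 62 guidance genes that passed the filter, 5 rose and 3 fell by edgeR at adjusted p under 0.05, which is 12.9% beside 7.94% of all 15413 genes (4.07% rose and 3.87% fell). The receptors Ephb3, Plxna4 and Unc5c and the ligands Sema3c and Ntn3 rose. The receptors Robo2 and Plxna2 and the membrane semaphorin Sema6b fell. The medians were alike (-0.01 over guidance genes and 0.01 over all genes), and the median size of change was 0.34 against 0.21.

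Sema3c was at 40.3, 37.9 and 26.0 CPM in betaSDmut and at 10.2 and 13.6 CPM in controls (log2 fold change 1.54 ± 0.23, edgeR adjusted p = 0.0213). It fell against pMN in the progenitors, but there added Nkx2.2, wildtype or mutant, was compared with none added. In iSDmut against iNkx2.2 it was at 14.9 and 10.9 CPM against 6.08, 6.80 and 7.66 CPM, higher with the mutant as in islets, and was not called. At E15.5 it was lower with the mutant, at 41.3 to 46.9 CPM in SDmut against 53.6 to 84.9 CPM in controls, and was not called either. Ntn3 was at 5.95, 7.60 and 6.96 CPM against 3.197 and 2.60 CPM (1.23 ± 0.19, edgeR adjusted p = 0.0207). Sema6b, a transmembrane ligand of class A plexins, was at 5.79, 5.33 and 5.18 CPM against 9.45 and 8.10 CPM (-0.70 ± 0.14, edgeR adjusted p = 0.0385). For all 3 ligands the groups did not overlap. No ephrin and no Slit passed. Slit1 was at 0.500 CPM in betaSDmut replicate 1 and 4.75 and 4.60 CPM in the others, on both sides of the controls (1.58 and 1.99 CPM).

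Among receptors, Ephb3, a receptor of B-type ephrins, went from 0.525 and 0.867 CPM in controls to 5.04, 4.71 and 3.77 CPM (2.67 ± 0.31, edgeR adjusted p = 0.0087). Plxna4 went from 5.77 and 4.64 CPM to 21.61, 16.56 and 15.51 CPM (1.78 ± 0.19, edgeR adjusted p = 0.00723), and Plxna2, of the same class A, from 80.4 and 90.1 CPM down to 58.0, 50.8 and 40.7 CPM (-0.78 ± 0.15, edgeR adjusted p = 0.0352). Unc5c rose from 18.9 and 18.3 CPM to 36.2, 36.0 and 31.2 CPM (0.88 ± 0.09, edgeR adjusted p = 0.00672). Robo2, the Robo gene with the most transcript in islets, fell from 203.5 and 205.7 CPM to 139.3, 116.5 and 126.7 CPM (-0.69 ± 0.09, edgeR adjusted p = 0.0142). In progenitors it was higher in iSDmut than in iNkx2.2, the opposite direction. Robo1 was at 58.0, 49.7 and 59.8 CPM against 59.0 and 67.4 CPM (-0.18, edgeR adjusted p = 0.362). Of the other listed genes, Epha5 had -1.535 (at most 2.69 CPM in any of these libraries), Ntn1 -0.60, Epha4 -0.50, Slit2 -0.44, Plxnd1 -0.36, Ephb2 0.36, Efna5 -0.30 and Efnb2 0.20, and Sema3a was too low to be tested.

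Of 11 coreceptors and other receptors tested Nrcam fell (-1.935, edgeR adjusted p = 0.0254), and of 2 other ligands Rgmb fell (-0.51). Of 30 transducers the kinase Pak1 (0.87) and Srgap3 (0.64) rose, and the Robo effector Srgap1 (-1.05, edgeR adjusted p = 0.00412), the adaptor Nck2 (-0.54) and the exchange factor Trio (-0.56) fell.

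Beta-cell markers (7 of 7 found, none at 0) summed to 196900 to 215100 CPM in betaSDmut and 233200 to 238700 CPM in controls. Delta-cell markers (2 genes) summed to 3240 to 4903 CPM against 1942 to 2951 CPM, mesenchyme markers (7 genes) to 107.1 to 171.2 CPM against 212.9 to 276.8 CPM, and peripheral neuron markers (5 genes) to 195.9 to 200.3 CPM against 258.5 to 279.7 CPM. Schwann and neural crest markers (6 genes) summed to 16.3 to 19.0 CPM against 25.9 to 29.1 CPM, muscle markers (7 genes) to 2.62 to 3.88 CPM against 1.67 to 1.86 CPM, and the postmitotic motor neuron list (5 genes) to 222 to 248.1 CPM against 120.9 to 122.1 CPM. Their part in these results was not tested. With only 2 controls, leaving out either of them left no guidance gene called by edgeR, leaving out betaSDmut replicate 2 left 3, leaving out betaSDmut replicate 1 gave 18 (beside 2765 of all genes), and DESeq2 gave 13 (beside 2041, against 1224 of all genes in the reported fit). The 8 log2 fold changes kept their direction in all 11 alternatives.

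In 4-week islets labelled betaKO, a single guidance gene passed the test, a share like that of all genes. Sema3e rose, from 4.04 and 4.72 CPM in controls to 14.4 and 11.7 CPM (log2 fold change 1.58 ± 0.20, edgeR adjusted p = 0.0372), 1 of 63 genes (1.59%) beside 1.56% of all 14942 genes (0.81% rose and 0.75% fell). By p the next were Ntn4, at 15.8 and 13.1 CPM against 6.96 and 6.87 CPM (1.07 ± 0.17, edgeR adjusted p = 0.0534), and Robo1, at 40.5 and 43.6 CPM against 63.8 and 75.1 CPM (-0.72 ± 0.12, edgeR adjusted p = 0.0561), and neither passed. An unadjusted p under 0.05 was reached by 18 of the 63 genes and by 2275 of all genes. The authors' deposited calls differ: of 31 guidance genes listed, Efnb3, Ntn4 and Unc5c are called higher in betaKO and Robo1 lower, and Sema3e is not called. Their contrast names a control without its age, so it may not be the same comparison.

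The genes called at 8 weeks had these values at 4 weeks, none past the threshold. Sema3c was at 22.8 and 22.5 CPM in betaKO against 13.1 and 8.42 CPM (1.06, edgeR adjusted p = 0.114), Unc5c at 23.5 and 27.5 CPM against 15.6 and 18.6 CPM (0.58, edgeR adjusted p = 0.157) and Robo2 at 166.9 and 130 CPM against 195.7 and 172.2 CPM (-0.31, edgeR adjusted p = 0.395). Ephb3 was at 2.07 and 1.56 CPM against 1.46 and 0.955 CPM. Of the other listed genes, Ntn1 had 1.34, Slit2 1.30, Epha5 1.19, Plxnd1 -0.74, Epha4 -0.45, Ephb2 0.17, Plxna2 0.17, Sema3a 0.15, Efnb2 0.08 and Efna5 -0.00.

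No gene of the pathway lists passed at 4 weeks by edgeR. Alpha-cell markers (4 genes) summed to 50570 to 62400 CPM in betaKO and 24960 to 29170 CPM in controls, beta-cell markers to 164800 to 176800 CPM against 207500 to 211700 CPM, mesenchyme markers to 351.6 to 433.1 CPM against 208.3 to 227.2 CPM and acinar markers (9 genes) to 13730 to 39320 CPM against 5727 to 10650 CPM. The PP marker Ppy was at 6592 to 8198 CPM against 2577 to 2745 CPM, delta-cell markers at 4304 to 5675 CPM against 1786 to 3323 CPM and Schwann and neural crest markers (6 genes) at 24.7 to 36.1 CPM against 14.3 to 15.7 CPM. Endothelial markers (8 genes) were at 262.3 to 337 CPM against 377.1 to 449.8 CPM, immune markers (5 genes) at 13.0 to 38.3 CPM against 39.6 to 82.1 CPM and peripheral neuron markers at 203.1 to 214.7 CPM against 230 to 253 CPM. Their part in the result was not tested. The call of Sema3e was lost when any one of the 4 libraries was left out, 2 other genes being called without betaKO replicate 1. DESeq2 called 7 guidance genes, beside 770 of all genes.

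Whether the 2 islet genotypes differ was tested over all 9 islet libraries, each genotype against the controls of its own age. No guidance gene of 65 passed by edgeR, beside 1.21% of all 15995 genes (0.644% higher and 0.569% lower). At an unadjusted p under 0.05 there were 15, beside 2195 of all genes. DESeq2 called 6, beside 653 of all genes, and without betaSDmut replicate 1 edgeR called 1, beside 343. The smallest p belonged to Sema3e (difference of log2 fold changes, betaSDmut minus betaKO, -1.08 ± 0.23, edgeR adjusted p = 0.0772), Unc5d (-3.04 ± 0.65, edgeR adjusted p = 0.0783) and Ephb3 (2.105 ± 0.49, edgeR adjusted p = 0.0986). Unc5d, a low netrin receptor gene, was at 2.31 and 2.42 CPM in betaKO, 0.446 and 0.299 CPM in 4-week controls, 0.583, 0.702 and 0.290 CPM in betaSDmut and 0.668 and 0.737 CPM in 8-week controls. For Sema3c the difference was 0.49 ± 0.36, for Unc5c 0.31 ± 0.18 and for Robo2 -0.37 ± 0.18. Among the other listed genes it was -2.73 for Epha5, -1.93 for Ntn1, -1.75 for Slit2, -0.95 for Plxna2, 0.54 for Robo1, 0.38 for Plxnd1, -0.34 for Sema3a, -0.30 for Efna5, 0.19 for Ephb2, 0.13 for Efnb2 and -0.05 for Epha4. Of the pathway lists, the transducer Srgap1 passed (-1.285 ± 0.17, edgeR adjusted p = 0.0175). The authors' deposited calls differ from these. Of 31 guidance genes listed, they call Plxna4 lower (-2.63) and Sema4a higher (0.75) in betaKO than in betaSDmut. Their islet contrasts name a control without its age, so they may not use age-matched controls as the test here does. For betaSDmut against control, Sema3e has 1.01 among these contrasts and 0.49 in the authors' separate comparison of betaSDmut with control. Genotype and age change together in this design, so a difference of genotype and a difference of age cannot be told apart.

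**Figure D4:**
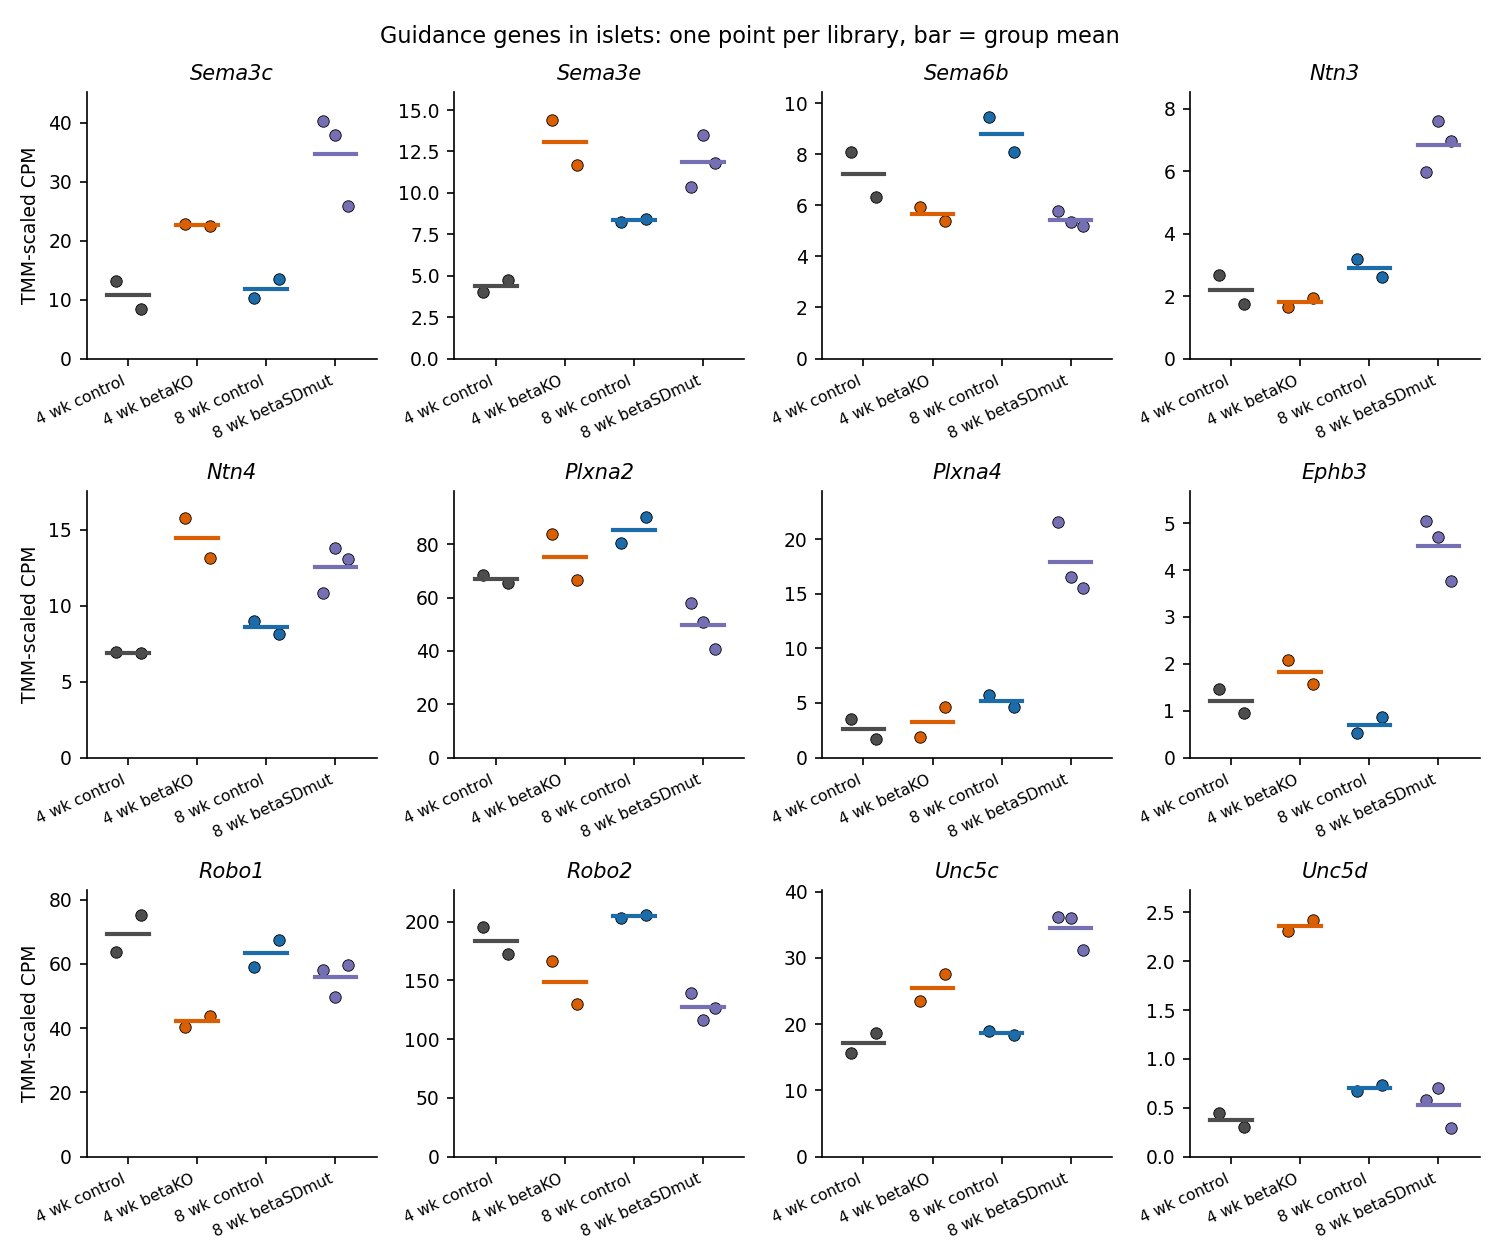
CPM (y, from 0) of 12 guidance genes in islets of 4-week controls, betaKO, 8-week controls and betaSDmut (x), with a point for each library and a bar at the group mean. The 3 betaSDmut libraries lie above both 8-week controls for Sema3c (26.0 to 40.3 CPM) and Plxna4 and below them for Robo2.

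In whole pancreas at E15.5 no guidance gene passed. Of 68 tested by edgeR none was called, beside 0.00534% of all 18723 genes (1 gene), and 1 guidance gene and 475 genes in all had an unadjusted p under 0.05. DESeq2 called none either. Most values lay below 0: 56 of 68 log2 fold changes were lower in SDmut, with a median of -0.14 against 0.01 over all genes.

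Sema3c had the smallest p and did not pass, at 55.5, 53.6 and 84.9 CPM in controls and 42.4, 44.2, 46.9 and 41.3 CPM in SDmut (-0.57 ± 0.17, edgeR adjusted p = 1). Next by p were Plxna1 (-0.21) and Epha3 (-0.33), and neither passed. Robo2 ranged from 7.66 to 35.0 CPM in controls and from 5.10 to 55.05 CPM in SDmut, and the spread within both groups was wider than any difference between them (0.24 ± 0.92). Robo1 was at 25.2, 44.4 and 87.8 CPM in controls and 71.5, 61.4, 21.5 and 23.9 CPM in SDmut, and Sema3a at 17.0, 20.3 and 51.6 CPM against 43.2, 33.7, 12.5 and 9.37 CPM. Both were high in control 3, SDmut 1 and SDmut 2 and low in SDmut 3 and SDmut 4. Slit2 was at 249.5 CPM in control 2 and between 88.4 and 142.5 CPM elsewhere, and Efna5 at 10.2 CPM in control 1 and 11.5 and 14.4 CPM in SDmut 3 and 4 against 32.8 to 35.7 CPM in the other 4. The remaining listed genes had Unc5c -0.55, Slit2 -0.42, Epha5 -0.32, Epha4 -0.32, Sema3a -0.26, Robo1 -0.23, Efnb2 -0.23, Ephb2 -0.18, Efna5 -0.18, Plxna2 -0.16, Ntn1 -0.11 and Plxnd1 -0.02.

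The mesenchyme markers (7 of 7 found) summed to 6329, 12230 and 14320 CPM in controls and to 9933, 14740, 5376 and 6679 CPM in SDmut, lowest in control 1, SDmut 3 and SDmut 4. Beta-cell markers summed to 473.6 to 1078 CPM in controls and 203 to 338.9 CPM in SDmut. Their part in these values was not tested. None of the 45 genes of the pathway lists passed.

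**Figure D5:**
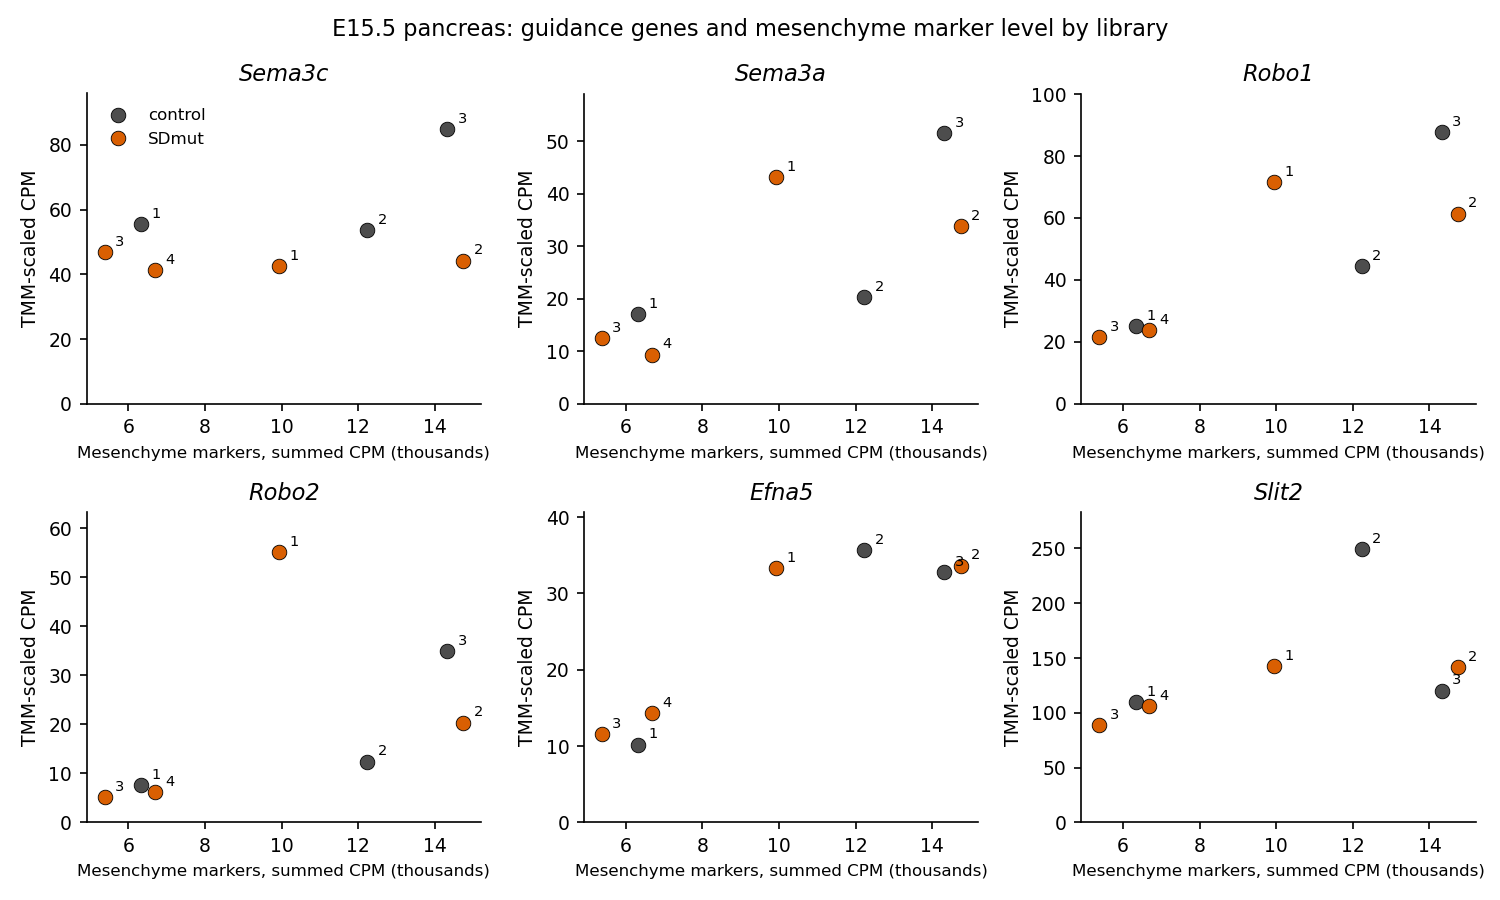
CPM of 6 guidance genes (y, from 0) in each E15.5 library against the summed CPM of 7 mesenchyme markers (x), with controls and SDmut in different colours and the replicate number beside each point. For Sema3a, Robo1 and Robo2 the groups overlap, and the libraries with the lowest marker level (SDmut 3, control 1 and SDmut 4) have low values of all 3 genes. Other libraries do not follow the marker level. Control 2, with a higher level, is also low for Sema3a (20.3 CPM) and Robo2 (12.4 CPM), and SDmut 1, in the middle, has the highest Robo2 (55.05 CPM).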

How the data were processed

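Gene read counts were deposited by the authors without normalization, as whole numbers, for E15.5 pancreas, islets and progenitors. FPKM tables deposited by the authors were used to compare genes within islets and within progenitors. The table of normalised embryonic counts (a signal, that is counts divided by size factors) deposited by the authors was not used. The deposited log2 fold changes, p-values and call scores of the authors (1 higher, -1 lower, 0 neither) are quoted as theirs. The submitters' processing notes name STAR, Cufflinks, DESeq2, edgeR 3.20.9, limma 3.34.9, bedtools 2.17.0 and mm10, without roles. The counting rule and use of strand are not given in the sources used here, so antisense and overlapping genes are uncertain. ChIP read counts and log2 CPM of final sites are as deposited; the base of the log is not stated and was taken as 2.

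Counts were fitted with edgeR 4.0.16 in R 4.3.3 (TMM, filterByExpr, robust quasi-likelihood fit), with Benjamini-Hochberg adjustment over all genes and a call at 0.05. Standard errors are the absolute log2 fold change over the square root of F. The 3 progenitor groups were fitted together, each islet comparison with its age-matched libraries, and the difference of islet effects over all 9. DESeq2 1.42.0 was an alternative. Fits were tested on simulated data. Gene spans, promoters and sequence were RefSeq's for GRCm38, and introns and transcript starts GENCODE's, read with Python 3.11.15 and pysam 0.24.0, and motif windows were 51 bases. The ChIP input library was not used.

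The members, gene lists and marker lists were chosen with earlier results of these data known. Named genes are those called, the smallest p-values where fewer than 3 were called, and 13 index genes in every comparison. Ntng1 and Efna5 have 2 rows in some tables, and their FPKM in progenitors is not given. Same-numbered pMN and iNkx2.2 libraries deviated together (correlations 0.535, 0.513 and 0.568, numbers from the titles) and were taken as pairs, with replicate 3 of both on lane 4. The reported fit leaves this pairing out, and only the replicate block takes it in. The alternatives tried were DESeq2, a replicate block, normalization by RLE or by library totals, no filter or a CPM filter, lane 2 alone, the compared groups alone and leaving out each library.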

Additional observations from a re-analysis of the deposited data

Results flagged for a closer look

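Epha5 in E15.5 SDmut libraries stood at 3.481 CPM in replicate 2 and at 0.791 to 1.01 CPM in the other 3, a gap to the nearest library that is a large part of the group's range. Of 16 groups of values checked in this way, chance flags about 1 in 20. In progenitors, the effects of the wildtype and the mutant protein differed by test for 2 genes: the log2 difference of iSDmut minus iNkx2.2 was -1.518 for Slit1 (edgeR adjusted p = 0.0378) and 1.137 for Robo2 (edgeR adjusted p = 0.0384).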

How the results depend on the processing

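Under every alternative run, no E15.5 guidance gene was called. The numbers of guidance genes called moved as follows. With DESeq2 there were 13 in 8-week islets, 7 in 4-week islets, 6 for the difference of islet effects and 13 for iSDmut against iNkx2.2. With the replicate block there were 5 in 8-week islets, 2 in 4-week islets, 33 for iNkx2.2 against pMN, 22 for iSDmut against pMN and 13 for iSDmut against iNkx2.2. Apart from pMN and iNkx2.2, same-numbered libraries were not taken as pairs (correlations -0.126 to 0.343 outside E15.5). Lane 2 alone gave 8 for iNkx2.2 against pMN and 1 for iSDmut against pMN. With no filter there were 4 in 4-week islets and 6 for iSDmut against iNkx2.2, with a minimum of 1 CPM 2 in 4-week islets, with total library size 0 for iSDmut against iNkx2.2, and with only the groups compared 1. Leaving out 1 library at a time gave 0 to 18 in 8-week islets, 0 to 2 in 4-week islets, 0 to 1 for the difference, 6 to 16 for iNkx2.2 against pMN, 4 to 6 for iSDmut against pMN and 0 to 12 for iSDmut against iNkx2.2. Calls over all genes moved too. In 8-week islets (1224 in the reported fit) they numbered 757 with the block, 384 without betaSDmut replicate 2 and 2765 without betaSDmut replicate 1. For iNkx2.2 against pMN (1486) they numbered 412 to 1299 with a library of either group left out. For iSDmut against pMN (554) they numbered 171 to 314 without a pMN library. For iSDmut against iNkx2.2 (44) they numbered 2 to 4 without an iNkx2.2 library and 1 to 30 without a pMN library. The largest guidance count for this comparison came from a fit with 1 iSDmut library left, where calls over all genes rose too. The cause was not tested.

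Of 120 gene results followed, 94 kept their direction in every alternative. The 26 that turned were not called in the reported fits, and the cause was not tested. Their log2 fold changes with each library left out in turn are given as ranges. At E15.5, Efna5 ran from -0.5615 to 0.112, Epha5 from -1.092 to 0.3322, Ntn1 from -0.211 to 0.0001012, Plxnd1 from -0.0934 to 0.04987, Robo1 from -0.5672 to 0.3587, Robo2 from -0.8005 to 1.114, Sema3a from -0.6775 to 0.4043, Slit2 from -0.6278 to 0.05739. In 8-week islets, Slit2 ran from -0.8952 to 0.2185. In 4-week islets, Efna5 ran from -0.4673 to 0.4902, Efnb2 from -0.08596 to 0.2297, Ephb2 from -0.1693 to 0.4731, Plxna2 from -0.00468 to 0.3266, Sema3a from -0.3974 to 1.386. For the difference of islet effects, Efna5 ran from -0.786 to 0.1742, Efnb2 from -0.0226 to 0.2901, Epha4 from -0.3751 to 0.354, Ephb2 from -0.1006 to 0.5357, Sema3a from -1.553 to 0.2291. For iNkx2.2 against pMN, Ephb2 ran from -0.06383 to 0.1523. For iSDmut against pMN, Efna5 ran from -0.371 to 0.3419, Epha5 from -1.534 to 0.9139, Plxnd1 from -0.3926 to 0.3717. For iSDmut against iNkx2.2, Epha5 ran from -1.113 to 1.334, Robo1 from -0.05414 to 0.3768, Sema3a from -0.5291 to 0.8566. At E15.5 the block by title number gave 0.02229 for Robo1 and 0.09762 for Sema3a, and leaving out the 2 libraries with muscle transcripts gave 0.1611 for Robo1, 0.213 for Sema3a and 0.02937 for Plxnd1. In 4-week islets Efna5 was 0.0004308 with RLE factors, 0.00265 with DESeq2 and 0.007663 with the replicate block, and Efnb2 was -0.0007731 with total library size. For the difference of islet effects Epha4 was 0.1038 with total library size and 0.1278 with the replicate block. In lane 2 alone Plxnd1 was -0.1705 for iSDmut against pMN and Sema3a -0.109 for iSDmut against iNkx2.2.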
